A study of Mus musculus with 6 samples.

Results

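Members of the bone morphogenetic protein (BMP) pathway and the Id genes were followed in single cells of mouse dorsal skin over the first 6 d of hair regrowth. They are the ligand genes Bmp2, Bmp4 and Bmp7, the receptor gene Bmpr1a, the genes of the secreted antagonists Nog and Grem1, the pseudoreceptor gene Bambi and the target genes Id1, Id2 and Id3. They were taken by symbol, and each of the 10 symbols matched 1 of the 32285 features of the count tables. All animals were wildtype adult males of the FVB strain at p55 to p57, whose back skin was shaved and waxed (depilation) to start hair regrowth, and no group carried another allele or agent. Skin was taken at 0, 4 and 16 h and on days 2, 4 and 6 (2 d, 4 d and 6 d), 1 library per time point, and each library mixed equal numbers of cells from 2 mice that cannot be separated. The time points therefore have no replicates, no test between 2 time points was possible, and the spread between mice is not seen.

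BMP ligands bind receptors such as BMPR1A, which phosphorylate SMAD proteins that enter the nucleus and switch on targets, among them the Id genes. Id proteins lack a DNA-binding region and hold back basic helix-loop-helix factors. Noggin and gremlin bind the ligands outside the cell, and BAMBI is a receptor-like protein without kinase activity that dampens signalling. In hair follicles (HFs), BMP signalling is known to keep bulge stem cells quiescent in telogen, and antagonists are known to lower it at the start of growth.

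The 6 libraries were made with 10x Genomics 3′ chemistry and held 72634390 to 112370376 UMIs, with a median of 5857.5 to 10351 UMIs per barcode. Of 61031 barcodes, 50502 were analysed after filters and the removal of doublets, and pairs of libraries shared 7 to 33 cell barcodes. Cells were clustered without the 10 genes and without 47 other genes of the same pathway, and clusters were named from marker genes. Cell cycle genes and genes correlated with them were left out as well, so a cluster can hold cycling and other cells. A name such as OB1 below means an OB1-like cluster. OB1, OB2 and OB3 are subsets of the outer bulge, and IB is the inner bulge. IRS1 to IRS3 carry the study's names for inner root sheath types. The IRS2 cluster was led by Krt35, Dcn and Basp1 and the IRS3 cluster by Pinlyp, Wfdc18 and Pla2g7, and whether they are inner root sheath was not tested. The names uHF.B and uHF.SB stand for basal and suprabasal cells of the upper HF. IFE.B and IFE.SB are basal and suprabasal cells of the interfollicular epidermis, SG is the sebaceous gland and DP is the dermal papilla. The marker list of each type was present in it at a summed 1327 CPM (UMI counts scaled to the same total for each sum of cells) or more in every library with at least 20 cells. The lists did not set every type apart: the OB1 list stood at 3426 to 15273 CPM in OB1 and 6072 to 8893 in T cells, and the uHF.B list at 11758 to 28914 CPM in uHF.B, 14854 to 37550 in uHF.SB and 14176 to 38135 in OB3. OB1 held 314, 490, 507, 321, 1725 and 1198 cells at the 6 times, and values over time are given in this order, earliest first, below. All levels are CPM of the summed UMIs of a cell type in a library, means ± SD are over libraries with at least 20 cells of the type, and intervals are exact 95% Poisson (levels) or Clopper-Pearson (shares) intervals that cover counting error only. In cell sums, fewer positive cells and fewer UMIs per positive cell cannot be told apart from a level alone, so shares of cells with a UMI are given after thinning every cell to 2000 UMIs.

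Sequence before the start of the gene is shown for 3 members that lead in different cell types below, Grem1 (outer bulge), Bmp4 (DP and basal epidermis) and Id2 (T cells and outer bulge). It is RefSeq sequence of build GRCm38.p6, on the minus strand for all 3 genes and written 5′ to 3′. RefSeq promoters were at hand for 5 of the 10 members. Capitals mark GGCGCC, a motif that BMP SMADs are known to bind, and CANNTG, the E-box of basic helix-loop-helix factors. Both motifs read the same on either strand. The Id2 window lies at chr12:25096254-25096342 and is shorter because 161 bases of annotated exon were left out, and it lies within the annotated span of Id2, upstream of the start that RefSeq uses.
Grem1, chr2:113758649-113758898: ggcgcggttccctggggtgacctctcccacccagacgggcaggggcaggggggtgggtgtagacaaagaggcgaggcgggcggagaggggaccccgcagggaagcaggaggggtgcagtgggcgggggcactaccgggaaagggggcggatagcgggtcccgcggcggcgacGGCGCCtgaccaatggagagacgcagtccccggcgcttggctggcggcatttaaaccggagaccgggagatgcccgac
Bmp4, chr14:46390670-46390919: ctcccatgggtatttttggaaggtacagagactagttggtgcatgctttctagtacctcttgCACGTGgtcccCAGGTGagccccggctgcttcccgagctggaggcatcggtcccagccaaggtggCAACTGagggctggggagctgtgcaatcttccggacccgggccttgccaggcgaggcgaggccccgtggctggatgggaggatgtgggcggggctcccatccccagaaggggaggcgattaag
Id2, chr12:25096254-25096342: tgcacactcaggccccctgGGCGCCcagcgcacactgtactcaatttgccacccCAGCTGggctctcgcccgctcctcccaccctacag
Grem1 held 1 GGCGCC and 0 CANNTG, Bmp4 held 0 and 3, and Id2 held 1 and 1. The SMAD core GTCT, counted on both strands, was found 4 times in Grem1, 1 time in Bmp4 and 0 times in the shown bases of Id2. Among 32851 promoters of 250 bases, 9.6% held GGCGCC, 66.2% held CANNTG and 82.9% held GTCT, so these matches describe letters and not binding.

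The members differed in how far they were spread over the skin. The map of mean levels shows Grem1 in the outer bulge, Bmp4 in DP and fibroblast cells and the basal epidermis, Bmp2 in the inner bulge and basal epidermis, Id3 in DP and fibroblast cells, the outer bulge and the basal epidermis, and Bmpr1a and Bmp7 across the keratinocytes.

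**Figure D1:**
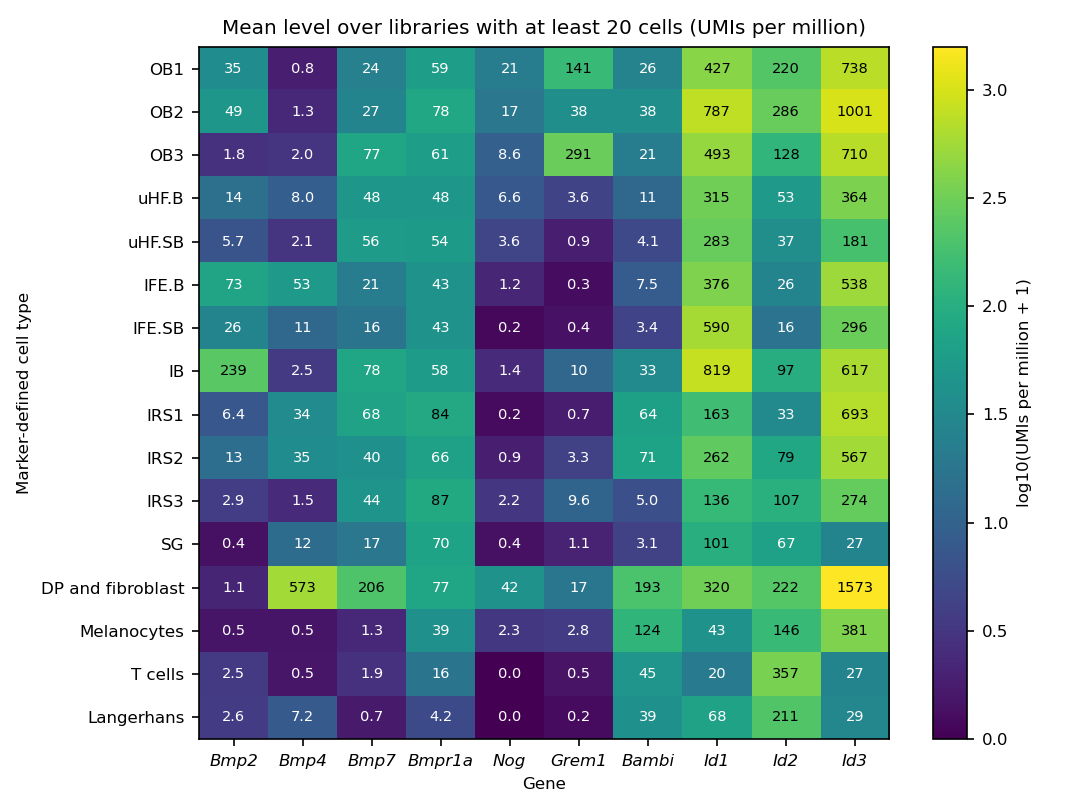
Mean CPM of each member (columns) in each marker-defined cell type, averaged over libraries with at least 20 cells of that type; colour is log10(CPM + 1). Grem1 stands at 291 in OB3 and 141 in OB1 and at 37.8 or less in every other type, and Bmp4 at 573 in DP and fibroblast cells.

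Bmp2 (chr2:133552159-133562885, GRCm38, plus strand) encodes a ligand, and the basal epidermis was its largest source. IFE.B gave 65.2% of the 15862 Bmp2 UMIs. IFE.B levels were 145, 17.2, 35.4, 98.8, 46.5 and 92.8 CPM. The basal epidermis thus had its highest level before depilation and its lowest at 4 h. IB had the highest mean (239 ± 314 CPM, SD, n = 4), which rests on the 21 IB cells at 0 h with 703 CPM (581 to 844), since the other 3 libraries held 46.5, 45.4 and 161 CPM. OB1 held 64.9, 53.6, 60.2, 23.3, 2.26 and 3.09 CPM, and OB2 held 67, 70.1, 44.2, 31.7, 52.6 and 27.7 CPM. The last 2 OB1 values lay far below the first 3, while every OB2 library stayed at 27.7 CPM or more. OB3 had 0 to 3 Bmp2 UMIs per library, at or under the limit of 3 UMIs that a count of 0 allows.

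Bmp4 (chr14:46383520-46390669, minus strand) encodes a ligand, with its highest level in DP and fibroblast cells. IFE.B, with 33.2% of all analysed cells, gave 73.5% of its 10142 UMIs. DP and fibroblast cells held 633 CPM (561 to 711, 126 cells) at 4 d and 513 CPM (396 to 654, 25 cells) at 6 d. The other 4 libraries had 8 to 19 such cells and 129 to 481 CPM. IFE.B held 63.4, 19, 48.7, 63.2, 76.4 and 46.3 CPM, with 3.45% to 14.4% of thinned cells positive (14.9% to 38.1% unthinned). The lowest of these levels was again at 4 h. IRS1 and IRS2 held 10.7 and 18.3 CPM at 4 d and 56.9 and 51.7 CPM at 6 d. The 6 d values rest on 46 IRS1 and 144 IRS2 cells, and their gap to the 46.3 CPM of IFE.B was within counting error. In OB1 the level was 0 to 2.18 CPM and the share of positive cells 0% to 0.3%, against 0% to 0.432% in T cells, so it is read as background (0% to 1.25% and 0% to 0.398% unthinned). Median depth was 4515 to 7012 UMIs per OB1 cell and 2020 to 2702 per T cell. The summed DP and fibroblast markers in IFE.B ranged from 0.32 to 81.3 CPM against 1926 to 8467 in DP and fibroblast cells, and their part in the IFE.B level was not tested.

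Bmp7 (chr2:172868012-172940321, minus strand), a ligand widely made in epithelia, was spread over the keratinocytes. Its mean was 77.4 ± 28.0 CPM (SD, n = 6) in OB3, 55.7 ± 16.2 in uHF.SB, 47.9 ± 14.5 in uHF.B and 23.7 ± 13.6 in OB1. DP and fibroblast cells had the highest mean (206 CPM, n = 2). Immune cells and melanocytes had the lowest, at 1.88 CPM or less. OB1 levels were 12.8, 24.2, 30.2, 47.3, 16.8 and 11.2 CPM, highest at 2 d, and OB2 was also highest at 2 d (48.5 CPM).

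Bmpr1a (chr14:34410734-34503341, minus strand) encodes a type I receptor. It was the most even member, with means of 42.8 to 87.2 CPM over the keratinocyte types and SG, and 16.2 ± 7.57 CPM (SD, n = 6) in T cells and 4.22 ± 4.22 CPM in Langerhans cells. Ranges of neighbouring keratinocyte types overlapped throughout the order. The 2 d library was highest in 7 of the 7 keratinocyte types with 20 cells in all libraries (OB1, OB2, OB3, uHF.B, uHF.SB, IFE.B and IFE.SB), with 73.8 CPM in OB1 and 129 CPM in OB2 at that time against 52.1 and 54.6 CPM at 0 h.

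Grem1 (chr2:113746164-113758646, minus strand), the antagonist gremlin, was a gene of the outer bulge. OB1 gave 59.3% and OB3 27.7% of its 4769 UMIs. OB3 held 357, 117, 219, 322, 320 and 409 CPM. OB1 held 346 (320 to 375), 112 (98.3 to 126), 164 (151 to 177), 100 (88.5 to 113), 44.3 (40.6 to 48.3) and 81.1 (74.4 to 88.1) CPM. The intervals of OB1 and OB3 overlapped at 0 h and 4 h, and from 16 h on OB3 was higher by more than counting error. OB3 was lowest at 4 h, and OB1 as a whole, whose mix of clusters changed over time (below), at 4 d. In OB3, 18.8% to 48.4% of thinned cells were positive (26.9% to 70.9% unthinned), in OB1 9.05% to 36.6% (18.9% to 63.7%), and in T cells 0% to 0.559% (0% to 0.403%). OB2 had less, 72, 12.7, 63.4, 14.9, 44.6 and 19.1 CPM. Epidermal and upper follicle types held 5.22 CPM or less.

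Nog (chr11:89300638-89302332, minus strand), the antagonist noggin, was sparse, with 1128 UMIs in all, of which 29.7% lay in OB1 and 26.5% in uHF.B. OB1 levels were 52.7 (42.6 to 64.4), 38.7 (31 to 47.6), 24.3 (19.6 to 29.9), 3.64 (1.74 to 6.69), 2.26 (1.48 to 3.31) and 3.68 (2.38 to 5.43) CPM. The intervals of the first 3 libraries did not reach those of the last 3. OB2 kept 9.33 to 33.5 CPM, with the highest value at 4 d (20.7 to 51.1), and the intervals of OB1 and OB2 did not overlap at 4 d and 6 d. T cells and Langerhans cells had 0 Nog UMIs in every library, which allows up to 5.26 CPM in the shallowest T cell sum and 13.7 CPM in the shallowest Langerhans sum. DP and fibroblast cells had 6 UMIs at 4 d and 9 at 6 d (13.4 and 71.1 CPM).

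Bambi had its largest mean levels outside the bulge and epidermis. Means were 193 CPM in DP and fibroblast cells (n = 2), 124 ± 67.8 CPM in melanocytes (SD, n = 6), 70.5 and 63.9 CPM in IRS2 and IRS1 (n = 2), and 45.1 ± 13.7 CPM in T cells. In OB1 it was 66.5, 16.7, 14.2, 18.2, 19.1 and 21 CPM and in OB2 144, 6.37, 19.2, 20.5, 9.56 and 26.7 CPM. The 0 h library was the highest in 6 of the 7 keratinocyte types.

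**Figure D2:**
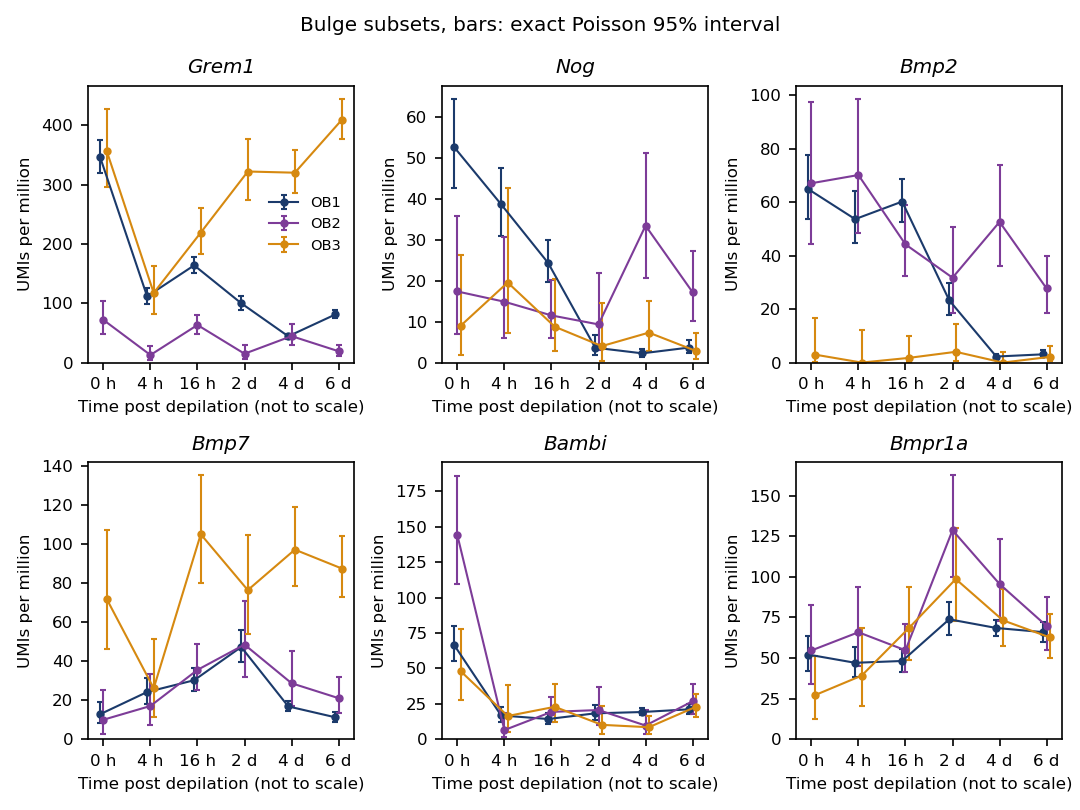
CPM of the 6 BMP pathway members measured in the outer bulge, by time after depilation (axis not to scale), in OB1, OB2 and OB3; points are library sums and bars exact 95% Poisson intervals. Nog and Bmp2 in OB1 lie at 2.26 to 3.68 CPM at 4 d and 6 d, while Grem1 in OB3 ends at 409 CPM.

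The Id genes were the most abundant members, with 154993 UMIs for Id1 (chr2:152736251-152737410, plus strand), 22465 for Id2 (chr12:25093799-25097140, minus strand) and 169511 for Id3 (chr4:136143497-136145755, plus strand). Id1 came mainly from the epidermis, 39.0% from IFE.SB and 31.3% from IFE.B. Id3 came to 44.6% from IFE.B. OB1 gave the largest share of Id2, 20.2%. Highest means were 819 ± 942 CPM (SD, n = 4) in IB and 787 ± 397 CPM (n = 6) in OB2 for Id1, 357 ± 67.4 CPM in T cells and 286 ± 111 CPM in OB2 for Id2, and 1573 CPM in DP and fibroblast cells (n = 2) and 1001 ± 417 CPM in OB2 for Id3. These neighbours in the order overlapped in range for all 3 genes. The IB mean of Id1 rests on the 21 cells at 0 h with 2196 CPM, since the other 3 libraries held 251, 172 and 659 CPM, and IB was above OB2 in 2 of 4 libraries.

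Over time, Id2 and Id3 had their highest keratinocyte levels before depilation, and Id1 did so in the follicle but not in the epidermis. OB1 held 1073, 512, 345, 212, 152 and 269 CPM of Id1, 592, 188, 152, 124, 72.9 and 192 CPM of Id2, and 1662, 855, 518, 524, 291 and 576 CPM of Id3. All 3 were lowest at 4 d and higher at 6 d in OB1 as a whole, whose mix of clusters changed over time (below). In IFE.B, Id3 was 1002, 93, 355, 594, 436 and 748 CPM and Id1 496, 154, 156, 362, 634 and 456 CPM. Both were lowest at 4 h in IFE.B, Id1 with nearly the same level at 16 h. Id2 and Id3 were highest at 0 h in 7 of the 7 keratinocyte types, and Id1 in 5 of them, the exceptions being IFE.B and IFE.SB with their highest level at 4 d. The share of thinned OB1 cells with an Id3 UMI was 79.6%, 55.2%, 45%, 48.8%, 28.3% and 45.5% (44.7% to 92.7% unthinned). Id3 was also highest at 0 h in types with little of it, 100 CPM against 7.09 to 24 in Langerhans cells and 59.6 CPM against 3.41 to 30.2 in T cells, and the part of such a library-wide difference in the keratinocyte levels was not tested. Cells called cycling made up 7.32%, 3.12%, 9.76%, 42.2%, 50.6% and 23.2% of OB1 at these times, and Id3 in non-cycling OB1 cells was 1661, 856, 548, 567, 335 and 620 CPM. The order of high and low times was thus also seen in cells not called cycling.

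**Figure D3:**
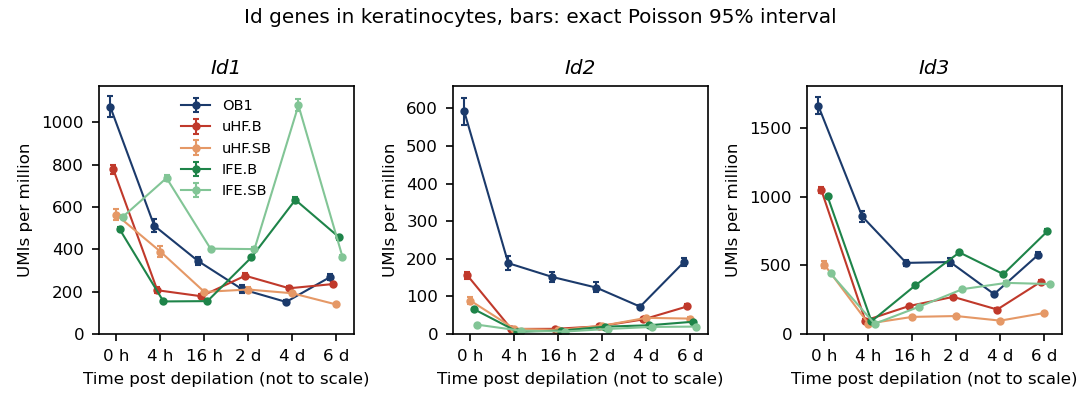
CPM of Id1, Id2 and Id3 by time after depilation (axis not to scale) in 5 keratinocyte types; points are library sums and bars exact 95% Poisson intervals. OB1 starts at 1662 CPM of Id3 and reaches 291 at 4 d, and IFE.B has its lowest Id3 value, 93, at 4 h.

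The time course was tested with edgeR's quasi-likelihood F test of a spline of time over the 6 library sums of a cell type, which leaves 2 residual degrees of freedom, with Benjamini-Hochberg adjustment over all genes. A gene is called at an adjusted p below 0.05. With time in hours, 0 of 9 members tested were called in OB1 (Bmp4 was too low), where 3 of 11011 genes were called (0.0272%) and 1144 had an unadjusted p below 0.05. Of the 9 members, 7 had an unadjusted p below 0.05, and the smallest adjusted p, 0.0512, belonged to Nog and Bmp2. In DESeq2's likelihood ratio test 4 of 9 members and 525 genes were called. Leaving out 1 library, which leaves 1 residual degree of freedom, called 7 members without 0 h, 8 without 4 h, 2 without 16 h, 2 d or 6 d, and 0 without 4 d. The same fits called 2230 genes without 0 h, 1137 without 4 h, 287 without 16 h, 291 without 2 d, 190 without 6 d and 55 without 4 d, so the counts over all genes moved too. In uHF.B, uHF.SB, IFE.B and IFE.SB, 0 of 10, 9, 9 and 9 members were called, and 0 genes in all (0%), against 236, 436, 81 and 325 genes with an unadjusted p below 0.05 and 0 members and 43, 122, 23 and 96 genes in DESeq2. Without the 0 h library uHF.B called 1 member, Id2 (trend 2.51, adjusted p = 0.049), among 92 genes.

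Calls in OB1 depended on how time entered the fit. With time as log2(hours + 1), which spreads out the early libraries, 8 of 9 members were called, where 17.2% of all genes were. Nog (trend -5.11 on the log2 scale over the time course, adjusted p = 1.29e-05), Bmp2 (-5.00, 0.00295), Id1 (-2.70, 0.000716), Grem1 (-2.46, 0.0194), Id2 (-2.26, 0.00581), Id3 (-2.14, 0.00738) and Bambi (-1.63, 0.00152) trended down. Bmp7, with its peak at 2 d, was called with a trend of -0.17 (adjusted p = 0.0168) that turned to 0.02 without 4 h, 0.12 without 4 d and 0.60 without 6 d, and Bmpr1a was not (0.24, adjusted p = 0.81). With the rank of the time point, 6 of 9 were called, where 8.39% of all genes were, and Grem1 (adjusted p = 0.0564) and Bmp7 (0.127) were not. Without the 0 h library on the log2 scale, Id2, Id3 and Bambi were no longer called (adjusted p = 0.22, 0.152 and 0.896), and without any other library 7 or 8 of 9 were, Bmp7 being lost without 2 d (0.0505). Over all genes, 25.4% were called without 0 h and 18.1% to 34.7% without each of the others. In uHF.SB the log2 scale called Id2 (adjusted p = 0.0293) among 55 genes, and in the other 3 types 0 members.

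OB1 was not the same mix of cells at each time. It joins 3 clusters, led by Krt24 and Cd34 (cluster 5), by Cpa4, Itga2 and Krt8 (cluster 11) and by Sfrp1 and Col14a1 (cluster 1). Cluster 5 was 85% of OB1 at 0 h and 10.1% at 4 d, cluster 11 was 45.3% at 4 h and 27.4% at 16 h, and cluster 1 was 15% at 0 h and 89.8% at 4 d. Within cluster 5, Grem1 held 409, 143, 343, 174, 241 and 147 CPM, and within cluster 1 it held 42.3, 21.3, 70.4, 83.6, 31.7 and 52.7 CPM. Both clusters were lowest in Grem1 at 4 h, cluster 5 with nearly the same level (147 CPM) at the last time, while OB1 as a whole was lowest at 4 d. The values of these clusters did not overlap, and the part of the mix in the OB1 level of Grem1 was not tested. Nog followed the same split, at 11.1 to 70.2 CPM in cluster 5 and 0 to 9.68 CPM in cluster 1. Id3 in cluster 5 was 1675, 1360, 810, 698, 1024 and 897 CPM and in cluster 1 1597, 455, 496, 487, 244 and 436 CPM, so both clusters had their highest value at 0 h. At 4 d, where OB1 as a whole was lowest, cluster 1 had its lowest Id3 value, while cluster 5 was above its 16 h value. Bmp2 in cluster 1 was 78.1, 32.9, 62.3, 27.7, 1.2 and 1.71 CPM, and its late low was also present in cluster 5 (62.2, 42.6, 36.7, 7.16, 18.8 and 6.25 CPM).

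**Figure D4:**
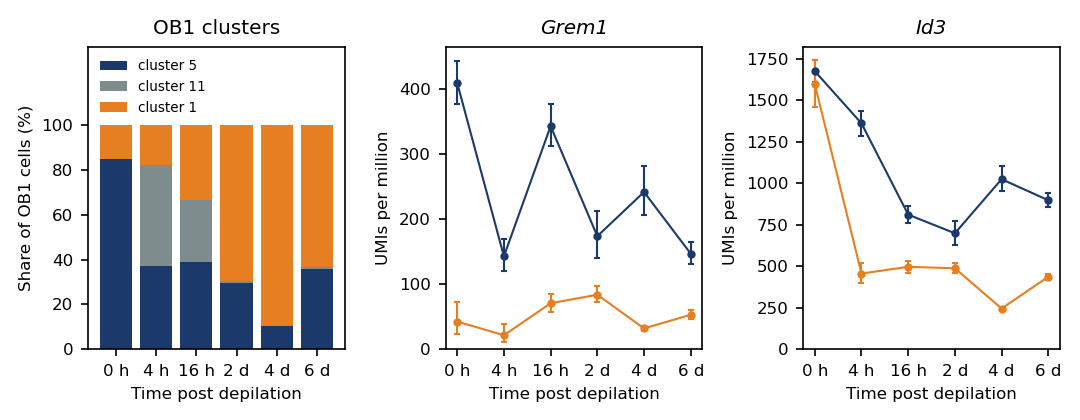
Left, share of OB1 cells in each of its 3 clusters by time after depilation (bars, %). Middle and right, CPM of Grem1 and Id3 in clusters 5 and 1, with exact 95% Poisson intervals (cluster 11 has too few cells after 16 h); Grem1 in cluster 5 stays at 143 CPM or more and in cluster 1 at 83.6 or less.

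Fits within the clusters, chosen after seeing the data, kept some of these calls. On the log2 scale, cluster 5 alone gave 4 of 9 members (Bmp2, Nog, Id1 and Bambi, with trends of -3.15, -2.67, -1.73 and -2.01), where 2.71% of genes were called. Grem1 was not among them (-1.06, adjusted p = 0.379). Cluster 1 alone gave 6 of 9, where 11% of genes were called, with Bmp2 at -6.28, Id1 at -3.48, Id2 at -2.15, Id3 at -2.07 and Bmp7 at -1.35, and with Nog at 1.07 on levels of 9.68 CPM or less. Non-cycling OB1 cells gave 7 of 9, where 15.1% were called. In hours, 0 of 9 members were called in each of the 3 subsets, among 0, 14 and 1 genes.

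Cell types were compared within libraries, by edgeR's quasi-likelihood test with the library as block, so that 6 libraries replicate each difference. These libraries are also 6 different times, so a difference that changed over time enters as a mean over times. Clusters were made from other genes of the same cells, so the p-values take the cell types as given. Differences below are log2 with their standard error (SE), followed by the adjusted p over all genes.

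Basal cells of the upper HF had more RNA of the ligands Bmp2 and Bmp4 and of both antagonists than the suprabasal cells above them. Levels of both antagonists were low, with a mean of 3.56 CPM of Grem1 in uHF.B and 0.85 in uHF.SB, and 6.57 and 3.62 CPM of Nog. From uHF.B to uHF.SB, 8 of 10 members were called, 2 higher and 6 lower, where 59.0% of all genes were called, 28.6% higher and 30.4% lower. Lower were Grem1 (-1.93, SE 0.30, 0.000157), Bmp4 (-1.85, SE 0.19, 8.02e-06), Bambi (-1.28, SE 0.15, 1.81e-05), Bmp2 (-1.14, SE 0.19, 0.000273), Id3 (-0.75, SE 0.09, 2.22e-05) and Nog (-0.69, SE 0.24, 0.0278), each in 6 of 6 libraries. Nog was no longer called without the 4 h, 4 d or 6 d library (-0.54, -0.68 and -0.49, adjusted p = 0.0792, 0.07 and 0.0949). Higher were Bmp7 (0.38, SE 0.09, 0.00236) in 5 of 6 libraries and Bmpr1a (0.33, SE 0.08, 0.0027) in 6 of 6. Id1 (0.03, SE 0.17) and Id2 (-0.16, SE 0.15) did not pass. The members' median difference was -0.72, and that of all genes was -0.02.

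In the epidermis, 7 of 10 members were called from IFE.B to IFE.SB, 2 higher and 5 lower, where 63.6% of all genes were called, 29.9% higher and 33.7% lower. Bmp4 was lower by 2.20 (log2 difference -2.20, SE 0.14, adjusted p = 1.98e-06), at 19 to 76.4 CPM in basal and 2.8 to 18.5 CPM in suprabasal cells. Bmp2 (-1.23, SE 0.09, 4.52e-06), Nog (-2.31, SE 0.49, 0.00259), Bambi (-0.82, SE 0.18, 0.0034) and Id3 (-0.55, SE 0.11, 0.00241) were lower as well, all in 6 of 6 libraries, Nog from a basal level of 2.46 CPM or less. Id1 went the other way (0.92, SE 0.29, 0.022) and was higher in suprabasal cells in 5 of 6 libraries, a call lost without the low-count filter (0.89, adjusted p = 0.0655). Bmpr1a was called higher (0.19, SE 0.06, 0.0207), yet on unscaled CPM it was higher in 2 of 6 libraries, so its direction rests on the TMM scaling, and the call was lost without 16 h (0.16, adjusted p = 0.108) or 4 d (0.20, 0.0523). The members' median was -0.43 and that of all genes -0.05.

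The outer bulge differed from the basal upper HF in 5 of 10 members, 3 higher and 2 lower, where 25.5% of all genes were called, 14.6% higher and 10.9% lower. Grem1 was 4.88 higher in OB1 (SE 0.46, adjusted p = 0.000143). Id2 (2.14, SE 0.41, 0.00594) and Bambi (1.28, SE 0.26, 0.00559) were higher too, and all 3 were higher in 6 of 6 libraries. Bmp4 (-3.38, SE 0.40, 0.000254) and Bmp7 (-1.29, SE 0.29, 0.0104) were lower in 6 of 6. Id3 was higher in 6 of 6 libraries but missed the threshold (1.03, SE 0.34, 0.057), and Bmp2 (0.75, SE 0.70), Nog (0.80, SE 0.61), Bmpr1a (0.16, SE 0.12) and Id1 (0.19, SE 0.26) did not pass. Nog was higher in OB1 in 3 libraries and lower in 3, and Bmp2 higher in 4 and lower in 2. Both fell in OB1 over time (above), so their mean difference does not describe the single times. The mix of OB1 clusters differed between these libraries, and its part in these differences was not tested.

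Among the bulge subsets, OB2 had less Grem1 and more Id1 and Id3 RNA than OB1. Of 9 members tested, 4 were called, 3 higher and 1 lower, where 23.7% of all genes were called, 10.0% higher and 13.6% lower. Id1 (1.12, SE 0.16, 0.000287), Id3 (0.64, SE 0.18, 0.0261) and Bmpr1a (0.43, SE 0.14, 0.0428) were higher in OB2 in 6 of 6 libraries, and Grem1 was lower (-1.71, SE 0.34, 0.00544) in 5 of 6. Id3 lost its call without 16 h, 2 d or 6 d (adjusted p = 0.0544, 0.0596 and 0.0736), and Bmpr1a without any library but 0 h (0.059 to 0.135). From OB1 to OB3, 2 of 9 were called, where 13.8% of all genes were called, 6.72% higher and 7.08% lower: Bmp2 was lower (-3.65, SE 0.46, 1.03e-05) and Bmp7 higher (1.92, SE 0.40, 0.0232), both in 6 of 6 libraries. Bmp2 had 7 UMIs in OB3 over all libraries, so the size of its difference is poorly known. The call of Bmp7 was lost without 0 h (1.86, adjusted p = 0.0573), 16 h (1.95, 0.0615) or 4 d (1.74, 0.0948). Grem1 was higher in OB3 in 6 of 6 libraries without passing (1.30, SE 0.53, adjusted p = 0.207), and it was called without the low-count filter (1.23, adjusted p = 7.03e-19). The difference hardly changed between these fits of the same sums, and the edgeR adjusted p of Id2 moved from 0.149 to 6.04e-07 likewise. The small p-values thus depend on the filter and are not taken as stronger evidence. Within OB1, Grem1 and Id3 were both higher in cluster 5 than in cluster 1 at every time (above). The mix of these clusters changed between libraries, and its part in the differences from OB1 was not tested.

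**Figure D5:**
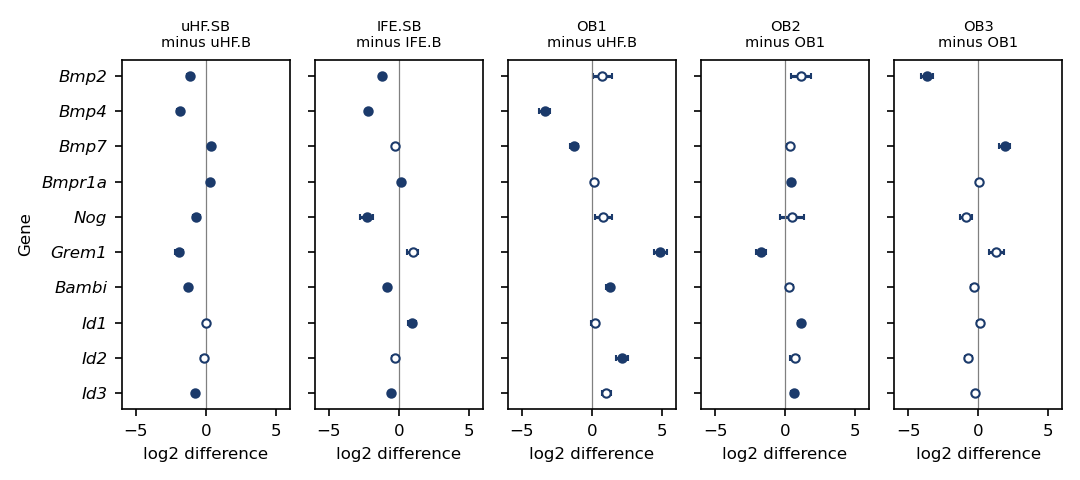
Log2 difference of each member between pairs of cell types with the library as block (points, with bars of 1 SE; filled where the adjusted p is below 0.05, open where not). Bmp4 was not tested among the bulge subsets; Grem1 has the largest difference, 4.88 from uHF.B to OB1.

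The step from basal to suprabasal cells was also compared between the epidermis and the upper HF, a test chosen after seeing the data. Of 10 members 1 was called, Grem1, where 9.55% of all genes were called. Its step was 2.93 higher in the epidermis (SE 0.54, adjusted p = 0.00174), on levels of 0 to 5.22 CPM in the 4 cell types. The epidermal means were 0.28 CPM in IFE.B and 0.44 CPM in IFE.SB, under the 0.47 CPM of T cells. Both are read as background, so the epidermal step carries little meaning.

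The rest of the pathway was taken as 47 listed genes. From uHF.B to OB1, 15 were higher and 3 lower of 33 tested, where 14.6% of all genes were higher and 10.9% lower, with a median of 0.37 against 0.00 for all genes. Fstl1, which encodes a follistatin-like protein (5.59, SE 0.20, 4.41e-07), the SMAD gene Smad9 (4.91, SE 0.62, 0.000392), the ligand gene Bmp6 (3.78, SE 0.55, 0.000885) and the homeobox target Msx1 (3.77, SE 0.35, 5.7e-05) led, together with the ligand gene Gdf10, which had 1 to 67 UMIs per library in OB1 and 0 in every uHF.B library. Of the 6 other targets, 5 were higher and 1 was lower, Gata3 (-0.87, SE 0.12, 0.000563), named here after its value was seen. From uHF.B to uHF.SB, 9 were higher and 9 lower of 29 tested, a share near that of all genes (59.0% called, 28.6% higher and 30.4% lower). The homeobox gene Dlx3 (3.38, SE 0.43, 3.72e-05), Id4 (2.16, SE 0.20, 1.13e-05) and Bmp6 (2.04, SE 0.50, 0.00393) were higher, and the receptor gene Bmpr1b (-2.74, SE 0.64, 0.00291) and the inhibitory SMAD gene Smad6 (-1.65, SE 0.47, 0.00962) were lower, while all 5 other antagonists tested were lower.

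From IFE.B to IFE.SB, 9 of 30 were higher and 10 lower, again near the share of all genes (63.6% called, 29.9% higher and 33.7% lower). Atoh8 (4.99, SE 0.63, 0.00011) and Dlx3 (3.75, SE 0.36, 2.41e-05) were higher, and Bmpr1b (-3.56, SE 0.36, 2.6e-05), the ligand gene Bmp3 (-2.14, SE 0.13, 1.03e-06) and the antagonist gene Nbl1 (-1.76, SE 0.13, 4.92e-06) were lower. Atoh8 had 0 to 2 UMIs per library in IFE.B, so the size of its difference is poorly known. In OB2 against OB1, 3 of 29 were called, all higher, where 23.7% of all genes were called: Bmp6 (3.44, SE 0.57, 0.00376), Smad6 (1.38, SE 0.37, 0.0155) and Tcf4, a partner of Id proteins (0.56, SE 0.17, 0.0321). In OB3 against OB1, 5 of 26 were higher and 3 lower, where 6.72% and 7.08% of all genes were, led by Msx1 (-2.58, SE 0.61, 0.0049), Bmp6 (1.95, SE 0.31, 9.42e-05), Id4 (-1.90, SE 0.19, 2.68e-07), Fstl1 (-0.80, SE 0.22, 0.0129) and Gata3 (0.76, SE 0.13, 0.000167). In the time courses in hours, 0 of 31, 27, 25, 28 and 28 listed genes tested in OB1, uHF.B, uHF.SB, IFE.B and IFE.SB were called, where 7, 0, 2, 0 and 1 had an unadjusted p below 0.05.

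The genes whose pattern was most like each member's were found over 78 sums of cell type and library, by Pearson's r of log2(CPM + 1) among 13842 genes. The sums share libraries and cell types, so r is a description with no p. Grem1 went with Bdnf (0.899), Rflnb (0.855) and Ccn2 (0.853), all 3 of them markers that named bulge clusters. Bmp4 went with Wnt5a (0.864), Dok6 and Fzd10, and Nog with Gfra1 (0.793), Igsf10 and Ptpru. Bmp2 was nearest to Itpkc (0.706), Tent5b and Mast4, Bmp7 to Efnb1 (0.855), Irx2 and Epn3, Bmpr1a to Fer (0.864), Abcd3 and Bcl11a, and Bambi to Cxxc5 (0.803), Rhoc and Dtx3. Id1 was nearest to AI661453 (0.858), Sowahc and Palmd, Id2 to Cep170 (0.788), Dtx3 and Ftl1, and Id3 to Nhsl1 (0.806), Nrbp2 and Kif21a. Among the 45 pairs of members, the highest r were Bmp7 with Bmpr1a (0.711), Id1 with Id3 (0.701), Bambi with Id2 (0.673), Bmp2 with Id1 (0.664) and Nog with Grem1 (0.663), while Id2 and Id3 had 0.011.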

How the data were processed

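The authors made 10x 3′ libraries and deposited Cell Ranger 6.1.2 filtered matrices of raw UMI counts per gene and cell on mm10 (GRCm38). The treatment of intronic reads is not given in the sources used here. From these counts, barcodes with 500 to 7000 genes and at most 10% mitochondrial UMIs were kept (55177), and 4675 doublets were removed as the highest Scrublet scores of each library, at a rate scaled to its number of cells (scanpy 1.11.5). Cells were clustered with Seurat 5.3.0 without 627 genes, and 19847 HF cells were clustered again. The genes left out were 57 BMP and Id genes, 98 cell cycle genes and 472 genes correlated with the cell cycle genes. Clusters were named from marker lists. UMIs were summed per cell type and library (at least 20 cells). Sums were tested with edgeR 4.0.16 (TMM, filterByExpr, robust quasi-likelihood F test, Benjamini-Hochberg over all genes, threshold 0.05), either over time (natural spline, 3 degrees of freedom) or between cell types with the library as block. DESeq2 1.42.0, other filters, scalings, time scales, clusterings and left-out libraries were alternatives, and the tests were tested on simulated data first. Genes named are the members, up to 5 other listed genes called per comparison by size, and 3 pattern neighbours per member. Members, lists and tests were chosen with earlier results of these data known. Thinning to 2000 UMIs left out 2059 shallower cells. Intervals and floors (3 UMIs) cover counting error only.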

Additional observations from a re-analysis of the deposited data

Results flagged for a closer look

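The step from basal to suprabasal cells differed between the epidermis and the upper HF for Grem1, by 2.93 on the log2 scale (SE 0.54, edgeR adjusted p = 0.00174). In the upper HF the difference was -1.93 (lower in 6 of 6 libraries), and in the epidermis it was 0.98 (higher in 4 of 6 libraries, adjusted p = 0.0637, and called without 0 h, edgeR adjusted p = 0.0292, or without 4 h, edgeR adjusted p = 0.0431). The levels behind it were 0 to 5.22 CPM in all 4 cell types. Means were 0.28 CPM in IFE.B and 0.44 CPM in IFE.SB, under the 0.47 CPM of T cells, so the epidermal step lay between levels read as background.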

How the results depend on the processing

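With 1 library per time point, time courses rest on 6 sums and 2 residual degrees of freedom, and the spread between mice is not seen. In the OB1 time course the number of members called moved from 0 to 4 with DESeq2, 2 without the low-count filter, 8 with time as log2(hours + 1) and 6 with its rank, and it ranged from 0 to 8 with libraries left out. Chosen after seeing the data, log2(hours + 1) gave 4 in cluster 5, 6 in cluster 1 and 7 in non-cycling cells, and 5 to 8 with libraries left out. Genes called in OB1 moved from 3 to 525 (DESeq2), 258 (no filter), 1897 (log2), 924 (rank), 1 (0.5 times the clustering resolution) and 55 to 2230 (libraries left out). In uHF.B, uHF.SB, IFE.B and IFE.SB, DESeq2 called 43, 122, 23 and 96 genes, and leaving out libraries 0 to 92, 7 to 202, 0 to 14 and 0 to 276. In uHF.B 0 to 1 member was called with libraries left out, and in uHF.SB 1 with log2(hours + 1), where uHF.B, uHF.SB and IFE.SB called 1, 55 and 5 genes (0, 7 and 3 by rank).

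Between cell types, dropping the library block left 1, 1, 3, 0 and 1 members called (uHF, IFE, OB1 against uHF.B, OB2 and OB3 against OB1) and 2996, 4304, 1213, 452 and 163 genes. OB2 against OB1 called 1602 genes without 6 d, and OB3 against OB1 950 without 4 d. Without the low-count filter, 2 members were called in OB2 and 5 in OB3, and 4 in OB3 at 0.5 times the clustering resolution, where no cluster was named OB2 and that comparison had no value. With libraries left out, members called ranged from 7 to 8, 6 to 10, 5 to 6, 2 to 4 and 1 to 2. Of 26 calls, 20 held under every alternative that gave them a value, the dropped block aside, and 0 reversed. Some uncalled log2 differences changed sign. Id1 in uHF was -0.054 without the block and -0.13 to 0.13 with libraries left out. Id1 in OB1 against uHF.B was -0.067 to 0.38 with libraries left out. Bmpr1a in OB3 was -0.012 without the filter and -0.044 to 0.15 with libraries left out. At 0.5 and 2 times the clustering resolution it was -0.080 and -0.010. Nog in OB2 was -0.24 without the block and -0.25 to 0.96 with libraries left out. Its main value, 0.48 (SE 0.87), was not near 0, and OB2 was higher than OB1 in 3 libraries and lower in 3. The causes were not tested. No pairing across time points was possible because each time point has 1 library. The library block took the place of a replicate block between cell types.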

Other observations

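Some of the other listed genes had levels that changed order between libraries, and they are given as values only, chosen after they were seen. Fst, which encodes the antagonist follistatin, held 477, 2838, 584, 390, 106 and 253 CPM in OB1 and 1763, 4960, 1099, 1296, 1779 and 1597 CPM in OB3 from the earliest to the latest time. Its highest value was thus at 4 h in both, and uHF.B had its highest value then too (1438 CPM). Sostdc1, a further antagonist gene, was lowest at 4 h, with 968, 121, 672, 875, 1138 and 982 CPM in uHF.B and 454, 55.8, 124, 274, 453 and 675 CPM in OB1. Smad7, an inhibitory SMAD gene, was highest at 0 h in OB1 (150, 62.4, 35.8, 37.1, 35.7 and 92.2 CPM). None of these 3 genes was called in the OB1 time course in hours (edgeR adjusted p = 0.333, 1.00 and 0.417).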
